A study of Mus musculus with 6 samples.

Results

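The Toll-like receptors and their adaptors were examined as a set of 10 genes, *Tlr1*, *Tlr2*, *Tlr3*, *Tlr4*, *Tlr5*, *Tlr6*, *Myd88*, *Ticam1*, *Cd14* and *Irak3*, picked by name from the 24982 genes in the data. Gene expression was measured by bulk RNA-seq in 6 libraries of 2 lines, both grown from the keratinocytes of neonatal C57BL/6 mouse skin and given no treatment. The KSFM-Ca2+ cells (3 libraries) were established and kept in KSFM-Ca2+, a serum-free keratinocyte medium with little calcium. The DKSFM cells (3 libraries) descend from the KSFM-Ca2+ cells and were adapted to the medium DKSFM. The lines therefore differ in medium as well as in culture history, and the effects of these cannot be told apart. The passage of each library is not given in the sources used here, and "combined", which stands in the file names of KSFM-Ca2+ replicate 3 and every DKSFM replicate, is not explained. A figure legend of the paper that covers an RNA-seq panel among others names biological samples, but no source says that the 3 libraries of a line came from separate cultures, so the p-values measure only the spread between these samples, which may be technical.

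Toll-like receptors recognize molecules of microbes and of damaged cells, at the cell surface or, as with *Tlr3*, inside endosomes. Most of them signal through the adaptor MyD88, *Tlr3* signals through the adaptor TRIF (the product of *Ticam1*), and *Tlr4* uses both. The routes end in NF-kappaB, which drives genes of inflammation, and in the interferon regulatory factors. Keratinocytes carry several of these receptors and answer them with chemokines, cytokines and antimicrobial peptides.

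Values are coverage, listed to 1 decimal and taken here as the mean number of reads over each base of a gene. How coverage was computed is not stated, and the levels of different genes are compared on this reading. The authors did not scale it to library size. Its sum over all genes was 1601676, 1238411 and 1057750 for KSFM-Ca2+ replicates 1 to 3, while for DKSFM replicates 1 to 3 it was 1174348, 1239438 and 1170675. Coverage was then normalized between the libraries by a trimmed mean of M values, and these normalized values are given as mean ± SD (n = 3 libraries). Fold changes are DKSFM over KSFM-Ca2+ on the scale of log2(normalized coverage + 0.1), which understates the change of genes with low coverage. They were tested with limma in the 12409 genes that reached a normalized value of 0.5 in 3 or more libraries, with Benjamini-Hochberg adjustment of the p-values. A gene was called higher in a line at an adjusted p under 0.01 with a change of at least 2-fold.

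Of the 10 genes, 8 had enough coverage to be tested. *Tlr2*, *Tlr3*, *Cd14* and *Irak3* were called higher in the KSFM-Ca2+ cells. This makes 4 of the 8 tested genes, where 10.6% of all tested genes were called in this direction. The 10 genes and the lists below were chosen with earlier results of these data known. Their shares therefore describe the genes and do not test them as a set. By limma, 0 of the 8 were called higher in the DKSFM cells, where 13.2% of all tested genes were called. *Myd88*, *Ticam1* and *Tlr5* had an unadjusted p under 0.05 toward the DKSFM cells, a count of 3 of 8 beside 40.4% of all tested genes, and 5 of 8 had one toward the KSFM-Ca2+ cells beside 41.5%. No other tool was run. The median log2 fold change of the 8 genes was -0.92, beside -0.0043 for all tested genes. An adjusted p under 0.01 at any size of change was reached by 7 of the 8, but 72.5% of all tested genes reached it too. In 8 of the 8 genes the libraries of the lines did not overlap, as was also seen in 83.3% of all tested genes. In bulk RNA, fewer cells that express a gene and less RNA of it per cell cannot be told apart.

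**Figure D1:**
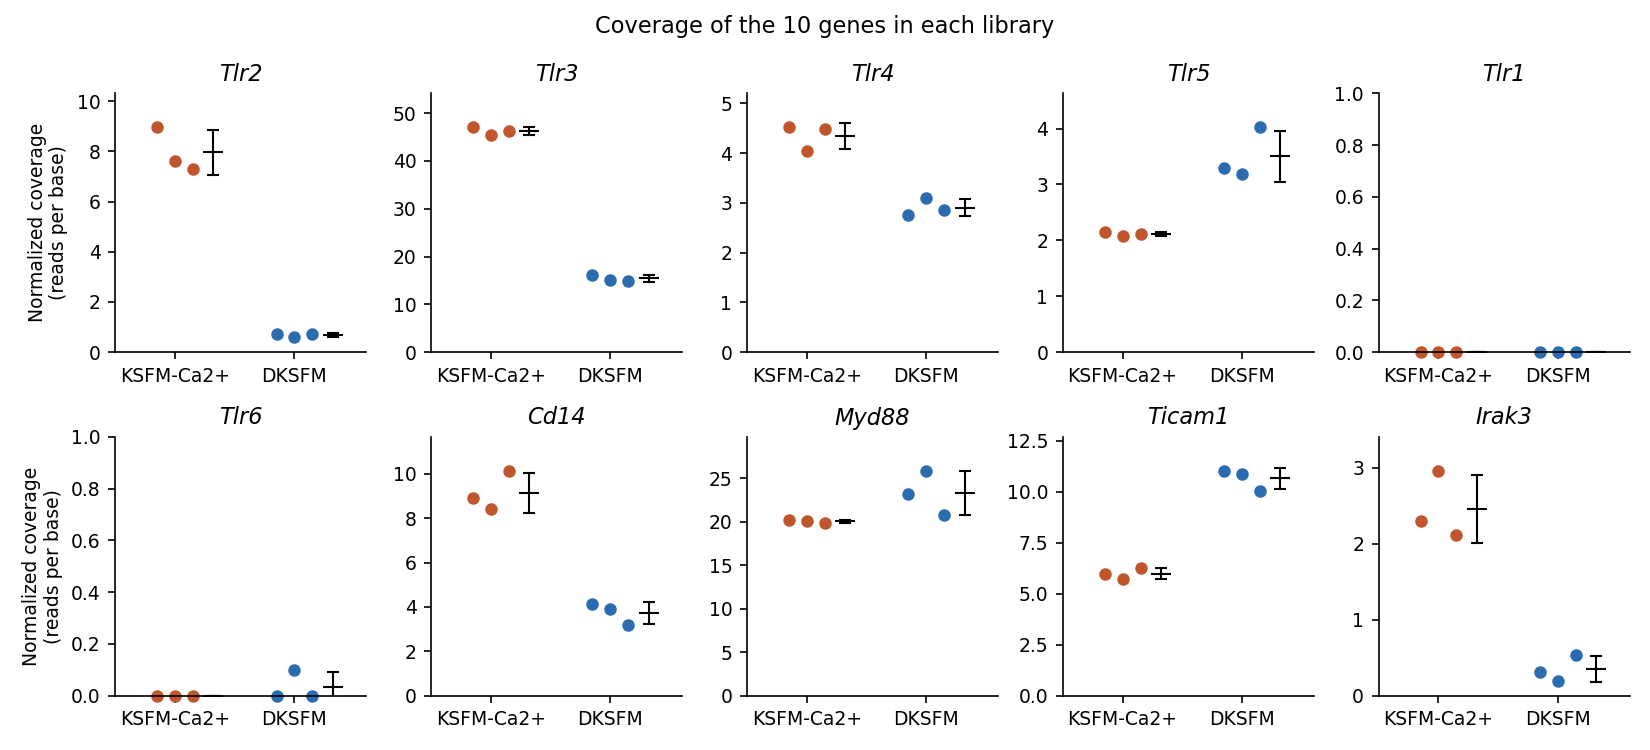
Normalized coverage (reads per base, y axis starting at 0 in each panel) of the 10 genes in the 3 KSFM-Ca2+ libraries (orange points) and the 3 DKSFM libraries (blue points), with the mean and SD of each line in black. *Tlr2*, *Tlr3*, *Tlr4*, *Cd14* and *Irak3* lie higher in the KSFM-Ca2+ libraries, *Tlr5*, *Myd88* and *Ticam1* higher in the DKSFM libraries, and *Tlr1* and *Tlr6* lie at or close to 0.

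*Tlr2* encodes the receptor for bacterial lipoproteins and lipoteichoic acid and lies at chr3:83836272-83841767 on the minus strand (GRCm38, GENCODE M21). Its normalized coverage was 8.96, 7.61 and 7.31 in the KSFM-Ca2+ libraries and 0.742, 0.599 and 0.741 in the DKSFM libraries. Every KSFM-Ca2+ library was thus far above every DKSFM library, and within a line the libraries were close. The means were 7.96 ± 0.883 and 0.694 ± 0.0825, a ratio of 11.5. On the log2 scale the change was -3.34 (standard error 0.14, 95% confidence interval -3.66 to -3.03, adjusted p = 1.27e-07). In the KSFM-Ca2+ cells 28.3% of tested genes had a lower level than *Tlr2*, and in the DKSFM cells 4.55% did. Among the 8 tested genes, it had the largest log2 fold change. With a pseudocount of 1 in place of 0.1 the log2 fold change was -2.40.

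*Tlr3*, the endosomal receptor for double-stranded RNA (chr8:45395665-45411080, minus strand), had the highest coverage of the receptor genes in both lines. It had 47.0, 45.4 and 46.2 in the KSFM-Ca2+ libraries and 16.1, 15.2 and 14.9 in the DKSFM libraries. Here too the lines were well apart, and the libraries of each line lay within a narrow range. With means of 46.2 ± 0.802 and 15.4 ± 0.628, the level was 3.0004 times as high in the KSFM-Ca2+ cells (log2 fold change -1.58, standard error 0.05, adjusted p = 2.26e-08). A noncoding antisense gene overlaps *Tlr3* in GENCODE M21 and is not listed in the coverage files. The level of *Tlr3* was above 64.5% of tested genes in the KSFM-Ca2+ cells and above 38.7% in the DKSFM cells. The genes whose values followed *Tlr3* most closely over the 6 libraries, out of 9090 genes whose mean reached 10 in one of the lines, were *Npdc1* and *Lman1*. After each gene was centred on its own mean, *Npdc1* differed from *Tlr3* by a root mean square of 0.0306 on the log2 scale and *Lman1* by 0.0363.

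*Tlr4* encodes the receptor for bacterial lipopolysaccharide (chr4:66827584-66930284, plus strand). Its coverage was 4.52, 4.05 and 4.48 in the KSFM-Ca2+ libraries and 2.76, 3.09 and 2.86 in the DKSFM libraries. The KSFM-Ca2+ libraries were all higher, by less than 2-fold (4.35 ± 0.260 against 2.90 ± 0.173, log2 fold change -0.57, standard error 0.10, adjusted p = 7.81e-04). *Tlr5*, the receptor for flagellin (chr1:182954788-182976044, plus strand), went the other way. It had 2.15, 2.07 and 2.12 in the KSFM-Ca2+ libraries and 3.29, 3.19 and 4.02 in the DKSFM libraries. The KSFM-Ca2+ values were nearly equal, while DKSFM replicate 3 stood above the other DKSFM libraries. The difference was again under 2-fold (2.11 ± 0.0361 against 3.50 ± 0.455, log2 fold change 0.70, standard error 0.12, adjusted p = 7.90e-04). With the 4 libraries marked as combined alone, which leaves 1 KSFM-Ca2+ library against 3 DKSFM libraries, the log2 fold changes were -0.61 for *Tlr4* and 0.69 for *Tlr5*. With 1 library in a line, no spread within that line can be measured.

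*Tlr1* and *Tlr6* encode the partners with which TLR2 pairs to recognize lipoproteins. *Tlr1* (chr5:64924679-64933563, minus strand) was listed at 0 in all 6 libraries. *Tlr6* (chr5:64952031-64960097, minus strand) was listed at 0.1 in DKSFM replicate 2 and at 0 in the other 5 libraries. Neither gene entered the test. A step of 0.1 in coverage is worth an approximate 3.56 reads over the longest *Tlr1* transcript and 4.33 reads over that of *Tlr6*, so that a lower level could not be seen. The neighbours *Tlr1* and *Tlr6* are alike in sequence, and reads could be shared between them.

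The order of the receptor genes by level was *Tlr3*, *Tlr2*, *Tlr4* and *Tlr5* in the KSFM-Ca2+ cells, with no overlap between neighbours in this order. In the DKSFM cells the order was *Tlr3*, *Tlr5*, *Tlr4* and *Tlr2*, again without overlap. The summed coverage of the 6 receptor genes was 62.7, 59.2 and 60.1 in the KSFM-Ca2+ libraries and 22.9, 22.2 and 22.6 in the DKSFM libraries. As a share of this sum within each library, which does not depend on the scaling between libraries, *Tlr3* made up 75.1%, 76.8% and 76.9% in the KSFM-Ca2+ libraries and 70.4%, 68.5% and 66.2% in the DKSFM libraries. The share of *Tlr3* was thus the major one in all 6 libraries. That of *Tlr2* was 13.1% ± 1.09 in the KSFM-Ca2+ cells and 3.08% ± 0.325 in the DKSFM cells. *Tlr4* made up 7.17% ± 0.305 in the KSFM-Ca2+ cells and 12.9% ± 0.982 in the DKSFM cells. *Tlr5* made up 3.49% ± 0.0559 in the KSFM-Ca2+ cells and 15.5% ± 1.996 in the DKSFM cells. For each of these 4 shares the lines did not overlap, and the exact permutation test gave p = 0.1, the smallest value that 3 libraries against 3 can give.

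**Figure D2:**
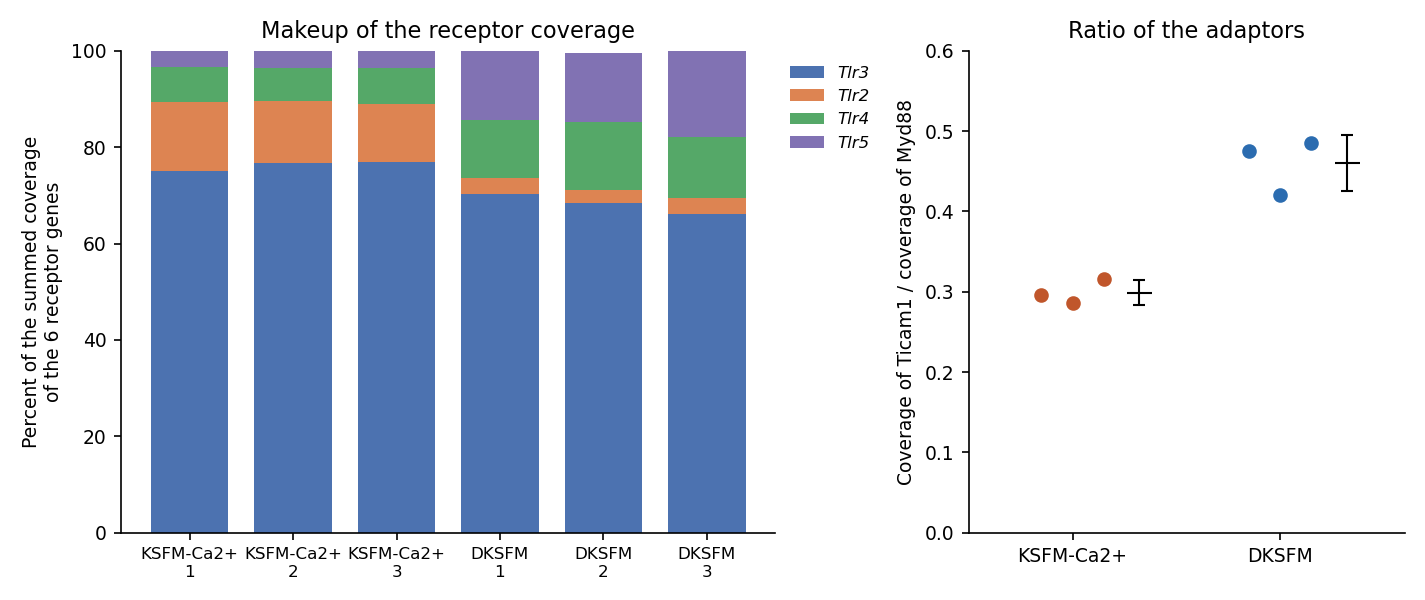
Left, the percent of the summed receptor coverage (y axis) from *Tlr3*, *Tlr2*, *Tlr4* and *Tlr5* in each library (x axis), and right, the ratio of *Ticam1* to *Myd88* coverage by line, with each library as a point and the mean and SD in black. The *Tlr2* portion shrinks from 13.1% ± 1.09 in the KSFM-Ca2+ cells to 3.08% ± 0.325 in the DKSFM cells, the *Tlr5* portion is larger in the DKSFM cells, and the adaptor ratio is higher in all DKSFM libraries.

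*Cd14* encodes the co-receptor that hands lipopolysaccharide to TLR4 and also assists TLR2 and TLR3. Its coverage was 8.89, 8.40 and 10.1 in the KSFM-Ca2+ libraries and 4.14, 3.89 and 3.18 in the DKSFM libraries. The lines did not overlap, and the lowest KSFM-Ca2+ library was clearly above the highest DKSFM library. The means of 9.14 ± 0.897 and 3.74 ± 0.499 differed by a ratio of 2.45 (log2 fold change -1.27, standard error 0.12, 95% confidence interval -1.55 to -0.99, adjusted p = 1.89e-05).

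*Cd14* and several Toll-like receptors are also genes of myeloid cells, so markers of other skin cells were looked up. Of the 10 myeloid markers, *Adgre1*, *Tyrobp*, *Aif1* and *Cx3cr1* were listed at 0 in all 6 libraries. *Ptprc*, *Csf1r*, *Itgam* and *Lyz2* did not exceed 0.1. *Fcer1g* was listed at 0.1, 0.1 and 0.2 in the KSFM-Ca2+ libraries and at 0.8, 0.3 and 0.6 in DKSFM replicates 1 to 3, without overlap, and was not tested. The summed coverage of this list was 11.03, 11.2 and 12.8 in the KSFM-Ca2+ libraries and 14.5, 19.2 and 21.3 in the DKSFM libraries, nearly all of it from *Cd68*, a lysosomal gene that is not limited to myeloid cells. Whether other cells contributed to the coverage of *Cd14* was not tested. The 6 Langerhans cell markers summed to 1.61, 1.98 and 2.59 in the KSFM-Ca2+ libraries and 10.3, 10.1 and 9.74 in the DKSFM libraries. *H2-Eb1* was the most abundant of them in the DKSFM cells, *Cd74* was listed at 1.6, 1.5 and 1.6 in the KSFM-Ca2+ libraries and at 0 in the others, *H2-Aa*, *H2-Ab1* and *Itgax* were listed at 0 throughout, and *Cd207* did not exceed 0.1. The 5 T cell markers did not exceed 0.2 in any library, the highest being *Lck*. The 8 keratinocyte markers summed to 20983, 21196 and 20844 in the KSFM-Ca2+ libraries and to 49785, 46015 and 50240 in the DKSFM libraries, with *Krt14* the most abundant. Of these 8 markers 3 (37.5%) were called higher in the DKSFM cells and 5 (62.5%) in neither line, beside 13.2% and 76.3% of all tested genes. Their median log2 fold change was 0.25.

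*Myd88* encodes the adaptor of all the receptors named here other than TLR3, and lies at chr9:119335934-119341411 on the minus strand. Its coverage was 20.2, 20.1 and 19.8 in the KSFM-Ca2+ libraries and 23.2, 25.9 and 20.8 in the DKSFM libraries. The KSFM-Ca2+ libraries were nearly equal, and the lowest DKSFM library lay just above them. The thresholds were not passed (20.0 ± 0.214 against 23.3 ± 2.55, log2 fold change 0.21, standard error 0.08, 95% confidence interval 0.03 to 0.39, adjusted p = 0.0339). With single libraries left out, the log2 fold change ranged from 0.14 to 0.29 and the adjusted p from 0.00462 (without DKSFM replicate 3) to 0.0823 (without KSFM-Ca2+ replicate 3). *Acaa1a* overlaps *Myd88* on the opposite strand and had 65.6 ± 3.03 in the KSFM-Ca2+ cells and 77.2 ± 3.36 in the DKSFM cells (log2 fold change 0.24). The libraries were directional and were aligned with a strand setting, but whether coverage was counted by strand is not stated, so *Myd88* is uncertain in this respect, and the part of *Acaa1a* in its value was not tested.

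*Ticam1* encodes the adaptor TRIF, through which TLR3 signals (chr17:56269319-56276786, minus strand). It had 5.98, 5.73 and 6.25 in the KSFM-Ca2+ libraries and 11.03, 10.9 and 10.1 in the DKSFM libraries. All DKSFM libraries were higher, and the libraries within each line were close. The means of 5.98 ± 0.259 and 10.7 ± 0.522 gave a log2 fold change of 0.82 (standard error 0.07, 95% confidence interval 0.66 to 0.99, adjusted p = 1.17e-05), which is under 2-fold. The ratio of *Ticam1* to *Myd88* within a library was 0.295, 0.286 and 0.315 in the KSFM-Ca2+ cells and 0.475, 0.421 and 0.485 in the DKSFM cells. *Myd88* was thus the more abundant adaptor in all 6 libraries, and the ratio did not overlap between the lines (two-sided exact permutation p = 0.1, the smallest possible). *Tlr3* and its adaptor moved in opposite directions. The ratio of *Tlr3* to *Ticam1* was 7.87, 7.93 and 7.40 in the KSFM-Ca2+ libraries and 1.46, 1.39 and 1.48 in the DKSFM libraries, with the same permutation p.

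*Irak3* encodes IRAK-M, a kinase-like protein that restrains signalling downstream of MyD88 (chr10:120141648-120202130, minus strand). Its coverage was low in both lines, with 2.30, 2.96 and 2.12 in the KSFM-Ca2+ libraries and 0.318, 0.200 and 0.529 in the DKSFM libraries. The lines did not overlap, and the DKSFM libraries were within a few rounding steps of 0. The means were 2.46 ± 0.444 and 0.349 ± 0.167, with a log2 fold change of -2.56 (standard error 0.29, 95% confidence interval -3.23 to -1.90, adjusted p = 5.38e-05). With a pseudocount of 1 the log2 fold change was -1.36. *Tmbim4* overlaps *Irak3* on the opposite strand and had 89.9 ± 2.21 in the KSFM-Ca2+ cells and 105 ± 2.42 in the DKSFM cells, a difference in the other direction. Relative to the kinase gene *Irak4*, *Irak3* stood at 0.267 ± 0.0524 in the KSFM-Ca2+ cells and 0.0388 ± 0.0172 in the DKSFM cells. *Irak4* in turn is overlapped on the opposite strand by *Twf1*, which had 100.2 ± 1.28 and 106 ± 2.30.

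**Figure D3:**
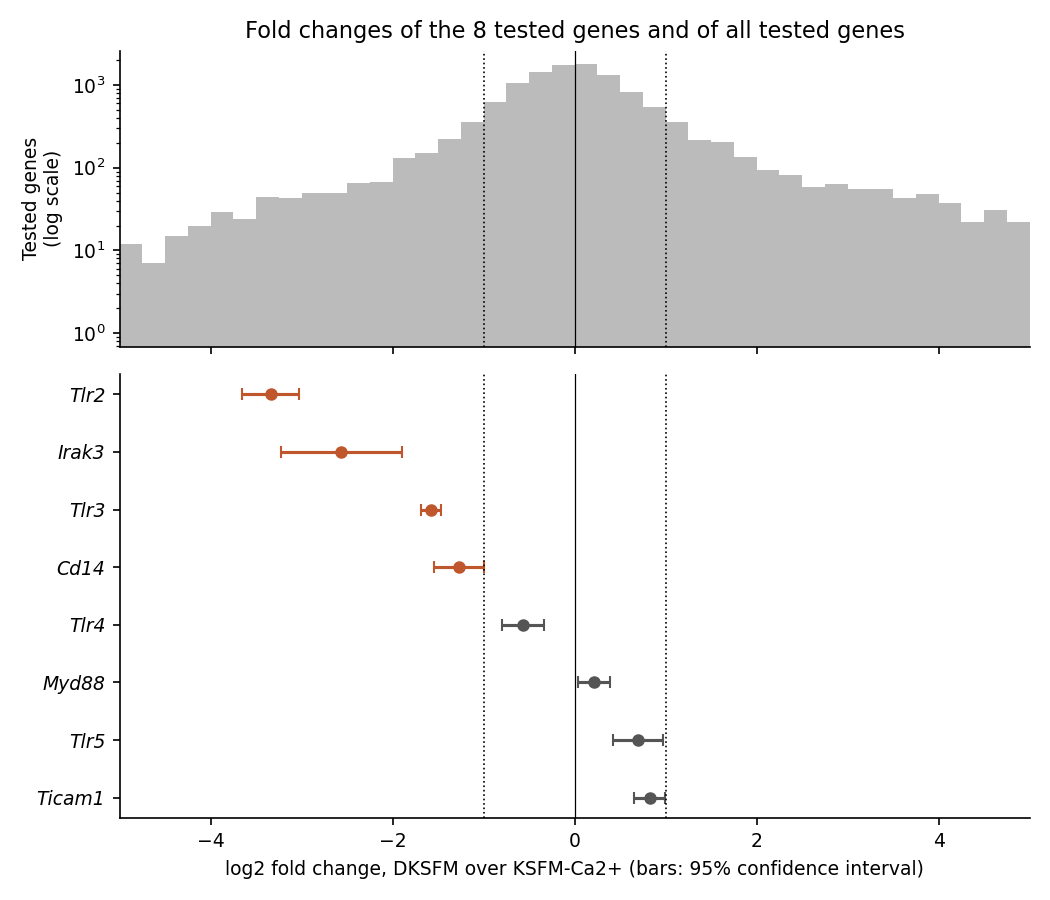
Lower panel, log2 fold change of the 8 tested genes (x axis, DKSFM over KSFM-Ca2+) with 95% confidence intervals, in orange for genes called higher in the KSFM-Ca2+ cells and in grey for the others, and upper panel, the distribution of the same measure over all tested genes between -5 and 5 (number of genes on a log scale). Dotted lines mark a 2-fold change, and *Tlr2* at -3.34 and *Irak3* at -2.56 lie far to the left while no gene lies beyond the line on the right.

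Over the 10 genes together, the order of levels in the KSFM-Ca2+ cells was *Tlr3*, *Myd88*, *Cd14*, *Tlr2*, *Ticam1*, *Tlr4*, *Irak3* and *Tlr5*, with *Tlr1* and *Tlr6* both at 0. The libraries of *Cd14* and *Tlr2* overlapped in this order, as did those of *Irak3* and *Tlr5*. In the DKSFM cells the order was *Myd88*, *Tlr3*, *Ticam1*, *Cd14*, *Tlr5*, *Tlr4*, *Tlr2* and *Irak3*, and *Cd14* and *Tlr5* overlapped. *Myd88* and *Tlr3* exchanged their places at the top between the lines.

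Promoters were read from the RefSeq table (GRCm38.p6), which gave 11 windows for 8 of the 10 genes, each from 250 bases before to 50 after a start site. *Tlr4* has no entry, and the promoter of *Cd14* was not analysed here. The windows were searched on both strands for the NF-kappaB consensus, for GAAA followed by any 2 bases and GAAA again (the interferon-stimulated element), and for TGANTCA (the AP-1 element). Of all 32851 promoters in the table, 4.51% hold the first, 3.44% the second and 7.81% the last. The promoter of *Tlr2* (chr3:83841559-83841858, minus strand) held the NF-kappaB consensus in overlapping matches from -173 to -163 and again from -8 to 2, counted from the start site. The promoter of *Tlr3* (chr8:45410331-45410630, minus strand) held it from -211 to -202. The promoter of *Myd88* (chr9:119339969-119340268, minus strand) held the interferon-stimulated element from -40 to -31. *Tlr6* had this element in overlapping matches from -116 to -101 of its first window. No match was found in the windows of *Tlr1*, *Tlr5*, *Ticam1* and *Irak3*, nor any AP-1 match in the 11 windows. A match is a description of the letters in the window. The promoters with a match in a tested gene are shown 5′ to 3′ on the strand of the gene, with the matches in capitals.

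*Tlr2* promoter: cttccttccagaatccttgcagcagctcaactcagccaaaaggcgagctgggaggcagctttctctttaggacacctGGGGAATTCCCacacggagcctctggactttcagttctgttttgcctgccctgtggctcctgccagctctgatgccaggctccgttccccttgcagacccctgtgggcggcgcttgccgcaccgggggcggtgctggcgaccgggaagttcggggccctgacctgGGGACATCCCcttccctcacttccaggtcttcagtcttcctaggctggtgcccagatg

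*Tlr3* promoter: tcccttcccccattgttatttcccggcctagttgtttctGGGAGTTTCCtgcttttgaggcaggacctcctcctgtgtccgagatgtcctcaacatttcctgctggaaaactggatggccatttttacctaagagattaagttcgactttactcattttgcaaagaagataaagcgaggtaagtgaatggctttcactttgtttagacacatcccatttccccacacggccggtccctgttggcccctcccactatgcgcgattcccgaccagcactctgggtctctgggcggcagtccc

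*Myd88* promoter: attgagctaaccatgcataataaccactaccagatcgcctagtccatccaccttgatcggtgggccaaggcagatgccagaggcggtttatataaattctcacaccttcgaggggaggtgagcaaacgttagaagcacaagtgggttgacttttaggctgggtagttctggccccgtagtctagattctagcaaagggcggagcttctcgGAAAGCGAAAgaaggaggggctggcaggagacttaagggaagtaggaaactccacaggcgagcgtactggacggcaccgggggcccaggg

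The changes of the 10 genes were also set beside those of their chromosomal neighbours. The tested genes within 10 Mb had a median log2 fold change, after the median of all tested genes was subtracted, of 0.38 around *Tlr2*, 0.52 around *Tlr4* and 0.25 around *Irak3*. These 3 genes were lower in the DKSFM cells and so went against their surroundings. This median was -0.62 around *Tlr5*, which was higher in the DKSFM cells and went against its surroundings too. Around *Tlr3* it was -0.42, in the direction of the gene but smaller in size. Around *Cd14* it was -0.20, also in the direction of the gene. Around *Myd88* it was 0.24 and around *Ticam1* 0.25, again in the direction of these genes, and for *Myd88* about as large as its own change of 0.21. Over the whole chromosome of each gene, this median was -0.43 for *Tlr3*, -0.42 for *Tlr5* and -0.29 for *Cd14*. It was 0.22 for *Tlr2*, 0.14 for *Tlr4*, 0.24 for *Irak3* and 0.12 for *Ticam1*. For *Myd88* it was -0.15, against the direction of its window. The part of these shifts in the values of the 10 genes was not tested.

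The other genes of the pathway were taken from lists by role. Of 111 such genes 79 were tested, and 24 were called higher in the KSFM-Ca2+ cells, 14 higher in the DKSFM cells and 41 neither, with a median log2 fold change of -0.19. These are 30.4%, 17.7% and 51.9% of the tested pathway genes, beside 10.6%, 13.2% and 76.3% of all tested genes. Among the other receptor genes, *Tlr8*, *Tlr9*, *Tlr11*, *Tlr12*, *Tlr13* and *Cd180* were listed at 0 in all 6 libraries. *Tlr7*, a receptor for single-stranded RNA, had listed values of 0.1, 0.2 and 0.1 in the KSFM-Ca2+ libraries against 0.1, 0.5 and 0.2 in the DKSFM libraries and was not tested. Transcripts of *Tlr2*, *Tlr3*, *Tlr4* and *Tlr5* were thus the receptor transcripts with coverage above 0.5 in these libraries.

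Of the 9 co-receptors and chaperones, 6 were tested, with 1 (16.7%) called higher in the KSFM-Ca2+ cells and 2 (33.3%) in the DKSFM cells, beside 10.6% and 13.2% of all tested genes (median log2 fold change 0.11). *Ly96*, which encodes the MD-2 protein that binds lipopolysaccharide together with TLR4, had 26.1, 28.6 and 36.5 in the KSFM-Ca2+ libraries and 30.3, 27.7 and 22.2 in the DKSFM libraries. The lines overlapped in this gene, whose log2 fold change was -0.18 (standard error 0.14, adjusted p = 0.273). *Ly96* was in every library several times above *Tlr4*, at a ratio of 7.004 ± 1.19 in the KSFM-Ca2+ cells and 9.25 ± 1.63 in the DKSFM cells (two-sided exact permutation p = 0.2). *Lbp*, whose product carries lipopolysaccharide to CD14, was listed at 0.1, 0.1 and 0 in the KSFM-Ca2+ libraries and had 2.35 ± 0.476 in the DKSFM cells, at least 23.5-fold higher when counted against the 0.1 step (adjusted p = 6.85e-06). *Cd36*, a scavenger receptor that assists TLR2, rose from 1.23 ± 0.203 in the KSFM-Ca2+ cells to 15.4 ± 2.12 in the DKSFM cells (log2 fold change 3.55, adjusted p = 1.50e-07). *Cd14* and *Tlr2* thus went down where *Lbp* and *Cd36* went up. *Hsp90b1*, which encodes the chaperone gp96 of the Toll-like receptors, had 764 ± 16.1 in the KSFM-Ca2+ cells and 328 ± 20.4 in the DKSFM cells (log2 fold change -1.22, adjusted p = 7.69e-08). Its partner *Cnpy3* had a log2 fold change of -0.19 and *Cnpy4* one of 0.41. *Unc93b1*, needed to bring TLR3 to endosomes, reached at most 0.4 in a DKSFM library and was not tested, and *Ly86* and *Tril* were listed at 0 in all libraries.

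Of the 4 other adaptors, *Tirap*, which bridges TLR2 and TLR4 to MyD88, was the one tested. It had 47.7, 49.9 and 49.3 in the KSFM-Ca2+ libraries and 32.6, 37.4 and 38.4 in the DKSFM libraries. The lines did not overlap, and the change was under 2-fold (log2 fold change -0.44, standard error 0.06, adjusted p = 2.67e-04). *Tirap* was above *Myd88* and *Ticam1* in every library, but *Srpr* overlaps it on the opposite strand, with 48.8 ± 1.05 in the KSFM-Ca2+ cells and 47.5 ± 1.56 in the DKSFM cells, so this level is uncertain in the same respect as that of *Myd88*. *Sarm1* had listed values of 0.4, 0.2 and 0.3 in the KSFM-Ca2+ libraries against 0, 0.1 and 0 in the DKSFM libraries. *Ticam2*, which bridges TLR4 to TRIF, and *Pik3ap1* were listed at 0 in all 6 libraries.

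The 22 kinases and ubiquitin ligases downstream of the adaptors were all tested. Of these, 1 (4.55%) was called higher in the KSFM-Ca2+ cells, 3 (13.6%) higher in the DKSFM cells and 18 (81.8%) in neither. The shares of all tested genes were 10.6%, 13.2% and 76.3%. The median log2 fold change of this list was 0.02. *Ikbke*, a kinase of the interferon route, had 73.0 ± 3.50 in the KSFM-Ca2+ cells and 10.99 ± 0.877 in the DKSFM cells (log2 fold change -2.72, adjusted p = 1.08e-08). The Pellino ligase genes *Peli3* and *Peli2* had log2 fold changes of 3.90 and 3.31 toward the DKSFM cells at low coverage. *Irak1*, the most abundant gene of this list, had 199 ± 1.001 in the KSFM-Ca2+ cells and 170.2 ± 4.74 in the DKSFM cells, far above its relative *Irak3*. Of the 11 other inhibitors of the pathway, 3 (27.3%) were called higher in each line, beside 10.6% and 13.2% of all tested genes, and 5 in neither (median -0.21). *Zc3h12a* and *Socs1* were higher in the KSFM-Ca2+ cells like *Irak3*, with log2 fold changes of -1.76 and -1.53. *Dusp1* and *Sigirr* were higher in the DKSFM cells, with 2.45 and 1.73, the latter at an adjusted p of 0.00944, and its call was lost under 9 of the alternative settings. *Trafd1* was the most abundant inhibitor over both lines together and in the DKSFM cells (log2 fold change 1.43), while *Tollip* was above it in the KSFM-Ca2+ cells. Of the 6 transcription factors, *Irf5* was called higher in the DKSFM cells (log2 fold change 4.50), *Irf7* higher in the KSFM-Ca2+ cells and 4 in neither. These are 16.7%, 16.7% and 66.7%, beside 13.2%, 10.6% and 76.3% of all tested genes (median 0.30). *Irf7* lay just at the 2-fold line (-1.0004), and its call was lost with a pseudocount of 1 (-0.82), among other settings. *Rela* was the most abundant over both lines together (-0.12), though below *Irf3* in the DKSFM cells.

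**Figure D4:**
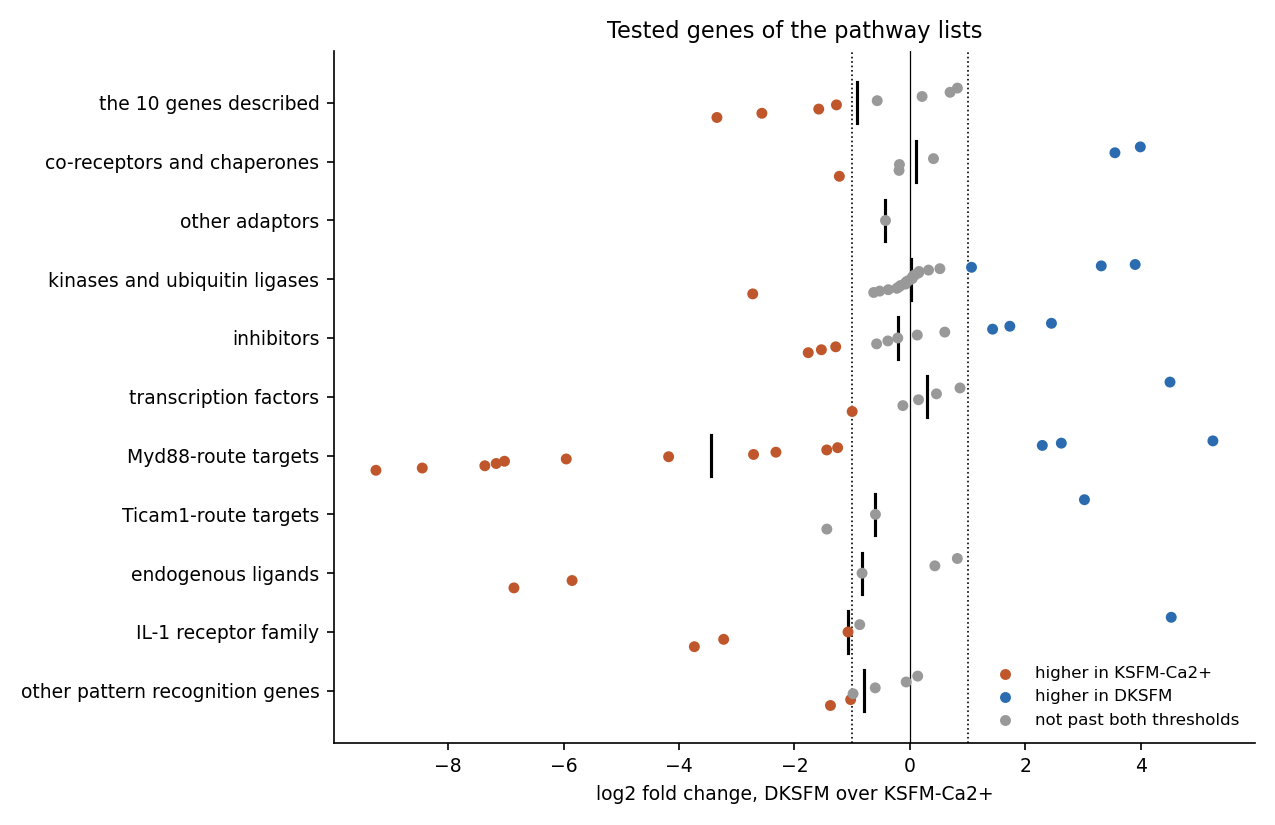
Log2 fold change (x axis, DKSFM over KSFM-Ca2+) of each tested gene in the pathway lists (y axis), in orange for genes called higher in the KSFM-Ca2+ cells, in blue for those higher in the DKSFM cells and in grey for the others, with the median of each list as a black bar and dotted lines at a 2-fold change. The Myd88-route targets spread widest, with a median of -3.44, while the kinases and ubiquitin ligases center on 0.02.

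Of 14 tested genes that the MyD88 route is known to induce, 11 (78.6%) were called higher in the KSFM-Ca2+ cells and 3 (21.4%) higher in the DKSFM cells, beside 10.6% and 13.2% of all tested genes (median -3.44). *Myd88* itself did not pass the thresholds. *Csf3* had 163 ± 9.53 in the KSFM-Ca2+ cells and 0.173 ± 0.0581 in the DKSFM cells (log2 fold change -9.25), and *Ccl20* had 107 ± 5.27 and 0.208 ± 0.00711 (-8.45). The DKSFM values of both lie within 2 rounding steps of 0, and with a pseudocount of 1 the log2 fold changes were -7.13 for *Csf3* and -6.49 for *Ccl20*. The most abundant target in the KSFM-Ca2+ cells was the chemokine gene *Cxcl1*, and in the DKSFM cells it was *Nfkbiz*. In the other direction *Defb14* and *Defb4*, antimicrobial peptide genes at low coverage in the KSFM-Ca2+ cells, had log2 fold changes of 5.25 and 2.62. The call of *Defb4* was lost under 2 alternative settings. *Icam1* was also called in this direction (log2 fold change 2.29). It had 6.31 ± 0.460 in the KSFM-Ca2+ cells and 31.3 ± 1.19 in the DKSFM cells. Of the 10 targets of the TRIF route, 3 were tested and 1 (33.3%), *Ifit2*, was called higher in the DKSFM cells (log2 fold change 3.02). The share of all tested genes called in this direction was 13.2%. None of the 3 was called higher in the KSFM-Ca2+ cells, beside 10.6% of all tested genes. The median of the 3 was -0.60, and neither *Ccl5* (-1.44, with overlapping libraries) nor *Isg15* (-0.60) passed the thresholds. With the replicate number as a block in limma, *Ccl5* was called higher in the KSFM-Ca2+ cells (adjusted p = 0.00407). *Ifnb1*, the interferon gene of this route, was listed at 0 in all 6 libraries. Of the 9 genes for endogenous ligands, 5 were tested and 2 (40%) were called higher in the KSFM-Ca2+ cells, beside 10.6% of all tested genes. These were *S100a8* (log2 fold change -6.86) and *S100a9* (-5.85), whose products bind TLR4, and *Hspd1* was the most abundant (-0.83). None of the 5 was called higher in the DKSFM cells, beside 13.2% of all tested genes. *Tnc* (log2 fold change 0.82) and *Hmgb1* (0.43) went toward the DKSFM cells by less than 2-fold.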

How the data were processed

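RNA-seq was analysed in 6 libraries, 3 of each line. The authors sequenced directional poly(A) libraries, aligned the reads to mm10 (RefSeq) with STAR, used Salmon for quantification and DESeq2 for the comparison, and also name bcl2fastq. What the authors deposited is coverage (taken here as a signal averaged over the bases of a gene), not scaled to library size. How it was computed, and the meaning of "combined" in the file names of KSFM-Ca2+ replicate 3 and the DKSFM replicates, are not given in the sources used here. Coverage is not a count, so no count model was fitted. Libraries were scaled with a trimmed mean of M values, unweighted (30% of M and 5% of A values trimmed, factors from 0.992 to 1.01) and tested as log2(normalized coverage + 0.1) with limma 3.58.1 in R 4.3.3 (intensity trend, two-sided, no covariate, Benjamini-Hochberg over 12409 genes). Figures used Python 3.11.15 and matplotlib 3.10.9. The test was run on simulated data with 200 changed genes, of which 200 were recovered with 0 others called among 12359. Without any change 0 of 12317 were called. Recovery of genes at low coverage, such as *Irak3* and *Tlr2* in the DKSFM cells, or with a change near 2-fold was not tested separately.

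The 10 genes and all lists were chosen with earlier results of these data known. Named genes are the 10, every other receptor, adaptor, co-receptor and chaperone, and of each other list the tested gene most abundant over both lines and the 2 with the largest change in each direction past the thresholds. The 2 genes most like each called member with a mean of at least 10 are also named. *Acaa1a*, *Tmbim4*, *Srpr* and *Twf1* were added because they overlap named genes, and *Irak4* serves as the reference of a ratio. *Ifnb1*, *Ccl5*, *Isg15*, *Tollip*, *Irf3*, *Nfkbiz*, *Ripk2*, *Tnc*, *Hmgb1* and *Icam1* were added after their values were seen. *Dusp1*, *Hspd1*, *Hmgb1*, *Irf3*, *Irf5*, *Irf7* and *Pmel* also overlap a protein-coding gene on the opposite strand. *Tlr3*, *Ikbke*, *Trafd1* and some other named genes overlap noncoding ones. These overlaps were not followed further. Markers are given by list. Alternatives covered scaling, filter, pseudocount, trend, replicate block, threshold and left-out libraries.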

Additional observations from a re-analysis of the deposited data

How the results depend on the processing

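The alternatives were 2 other scalings, no filter, a filter on every library, 2 other pseudocounts, no intensity trend, the replicate block, an adjusted p of 0.05, each library left out and the combined libraries only, which sets 1 KSFM-Ca2+ library against 3. There the spread comes from the DKSFM libraries alone, so its calls carry no weight here. Under the others, 3 to 4 of the 10 genes were called higher in the KSFM-Ca2+ cells and 0 higher in the DKSFM cells. No gene of the 10 changed direction or its call where it was tested. *Irak3* was not tested with the filter on every library or with the combined libraries only. The adjusted p alone crossed 0.01 for *Myd88* without DKSFM replicate 3 (0.00462), and with the combined libraries only for *Tlr4* (0.0121) and *Tlr5* (0.0153). Of the other pathway genes 17 to 25 were called higher in the KSFM-Ca2+ cells, and 14 higher in the DKSFM cells became 6 with the filter on every library, which drops genes low in one line. Over all genes that filter gave 1028 higher in the DKSFM cells in place of 1633. The log2 fold change of *Irak4*, -0.05, became 0.013 without KSFM-Ca2+ replicate 1, -0.10 without KSFM-Ca2+ replicate 3 and 0.052 with the combined libraries only. The libraries were not paired, since the methods name no pairing. Deviations of libraries with the same replicate number had correlations of -0.005, 0.024 and -0.006 across genes. With different replicate numbers they ranged from -0.037 to 0.040, and these values do not settle whether the libraries were paired. With the replicate block, 4 of the 10 genes were called higher in the KSFM-Ca2+ cells and 0 in the DKSFM cells, and over all genes 1312 and 1636, and *Ccl5* gained a call (adjusted p = 0.00407). With single libraries left out, the log2 fold change of *Ccl5* ranged from -2.09 to -0.72. *Nod2* and *Irf7*, near a 2-fold change, fell below it under 5 alternatives each. *Defb4* lost its call with a pseudocount of 1 (log2 fold change 0.77) and without DKSFM replicate 2 (adjusted p = 0.0104), and the log2 fold change of *Defb14* ranged from 2.71 to 6.02. The rounding step of 0.1 limits genes at low coverage in a line, among them *Tlr1*, *Tlr6*, *Irak3*, *Tlr2*, *Csf3*, *Ccl20*, *Peli3* and *Irf5*, and 3 libraries a line limit the permutation test to p = 0.1.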

Other observations

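Receptors outside the Toll-like family that share parts of this pathway were also measured. Of the 6 genes of the IL-1 receptor family, which signal through MyD88 as well, 5 were tested, with 3 (60%) called higher in the KSFM-Ca2+ cells and 1 (20%) higher in the DKSFM cells, beside 10.6% and 13.2% of all tested genes (median log2 fold change -1.07 in limma's fit). *Il1rl2*, the receptor for IL-36, had 10.02 ± 0.723 in the KSFM-Ca2+ cells and 0.696 ± 0.315 in the DKSFM cells (log2 fold change -3.73). *Il1rl1*, the receptor for IL-33, was listed at 0.1, 0 and 0 in the DKSFM libraries and was at least 11.01-fold higher in the KSFM-Ca2+ cells when counted against the 0.1 step. *Il18r1* was listed at 0.1, 0 and 0 in the KSFM-Ca2+ libraries and exceeded that by at least 26.9-fold in the DKSFM cells, counted in the same way. *Il1r1*, the most abundant of them, had a log2 fold change of -0.87. Of 11 other pattern recognition genes 6 were tested and 2 (33.3%) were called, both higher in the KSFM-Ca2+ cells, beside 10.6% of all tested genes. These were *Mb21d1*, which encodes the DNA sensor cGAS (-1.38), and *Nod2*, a sensor of bacterial cell walls (-1.03). The call of *Nod2* was lost with a pseudocount of 1 (log2 fold change -0.92), among other settings. *Mavs*, the most abundant over both lines together, had a log2 fold change of -0.60. In the DKSFM cells its mean was below that of *Ripk2*, with overlapping libraries.

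The 7 fibroblast markers summed to 1.149, 0.889 and 1.30 in the KSFM-Ca2+ libraries and 2.33, 2.10 and 2.22 in the DKSFM libraries, all from *Pdgfra*. The 7 melanocyte markers summed to 4.14, 3.95 and 4.60 in the KSFM-Ca2+ libraries and 17.3, 18.8 and 18.3 in the DKSFM libraries, mostly from *Mitf* (called higher in the DKSFM cells, log2 fold change 2.31), with *Dct* and *Tyr* listed at 0 throughout. *Pmel* of the same list had 0.594 in the KSFM-Ca2+ cells and 0.343 in the DKSFM cells on average, with overlapping libraries, and *Mlana* was listed at 0.2 in KSFM-Ca2+ replicate 2 and at 0 elsewhere. The 5 endothelial markers summed to 2.83, 3.16 and 3.30 in the KSFM-Ca2+ libraries and 8.27, 8.28 and 7.41 in the DKSFM libraries, mostly from *Pecam1* (called higher in the DKSFM cells, log2 fold change 1.41), with *Cdh5* and *Emcn* listed at 0 throughout.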
